A study of Mus musculus with 6 samples.

Results

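The genes that encode RNA polymerases I, II and III, the Mediator complex, the TBP-associated factors (TAFs) and the general transcription factors of the TFII series were examined in mouse embryos at the 4-cell stage. They were taken by name from the deposited gene table, as all gene names starting with Polr1, Polr2, Polr3, Gtf2, or Med or Taf followed by a digit. Of the 29431 genes listed, 98 were kept, and 1 pseudogene name, Taf9-ps, was dropped. The 98 comprise 28 polymerase genes, 31 Mediator genes, 23 TAF genes and 16 TFII genes. The study compared wild-type (WT) embryos that were untreated, labelled Control, with WT embryos treated with AXKO-0046, an inhibitor of the lactate dehydrogenase subunit LDHB. Each group has 3 libraries, and neither dose nor length of exposure is stated in the sources used here. The series design mentions 6 embryos, and its wording does not settle whether this is per group or per library. No label ties the replicates to separate litters or cultures, so p-values cover the variation among these 6 libraries alone, and it may be technical.

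RNA polymerase I transcribes the large ribosomal RNA precursor, RNA polymerase II transcribes messenger RNAs, and RNA polymerase III transcribes transfer RNAs and other short RNAs. Each enzyme has a pair of large catalytic subunits and many small ones, some of which are shared between the enzymes. RNA polymerase II starts at promoters with TFIIA, TFIIB, TFIID (the TATA-binding protein with its TAFs), TFIIE, TFIIF and TFIIH, and Mediator connects DNA-bound regulators to it. The mouse embryo begins its own transcription shortly after fertilisation, so these transcripts at the 4-cell stage can be of maternal or embryonic origin, which a level does not separate.

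The values are FPKM, the authors' read fragments scaled by gene length and library size, so levels are given per length. Complementary DNA was primed with oligo(dT), and whether short and long transcripts were recovered alike was not tested. Summed over all genes, FPKM ranged from 511534 to 524538 in controls and from 457016 to 498309 in inhibitor libraries, all lower, and the sequencing depth is unknown. The second inhibitor library stood apart from the rest. Its median correlation with the other libraries over all tested genes, on the log2(FPKM + 1) scale, was 0.888, against 0.946 to 0.965 for the others. Over the transcription genes its median correlation was 0.976, and the others lay between 0.979 and 0.985. Zscan4c and Zscan4f, genes of early genome activation, were at 136.2 and 363.2 FPKM in it and at most 1.34 and 2.53 FPKM in the other 5 libraries. Of the 10 embryo markers examined, 9 had a mean of at least 1 FPKM, Zscan4c only through the second inhibitor library, and Dppa3, an abundant maternal transcript, lay between 10510 and 18140 FPKM. Of 5 cumulus and granulosa cell markers in the table, Fshr, Cyp19a1 and Foxl2, which define granulosa cells, were at most 0.0711 FPKM in every library. Of the other two, Tnfaip6 was listed at 0 in 4 libraries and was at most 0.990 FPKM, and Nr5a2, which embryos also express, lay between 10.1 and 21.9 FPKM. Hba-a1, an alpha globin gene of red blood cells, lay between 69.8 and 145.9 FPKM in every library, while the beta globin gene Hbb-bs was at most 0.136 FPKM. The part of these cell types in the values below was not tested. In such pooled embryo RNA, fewer cells of a kind and less RNA per cell cannot be told apart.

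The transcription genes covered a wide range of levels. The mean over the 6 libraries was at least 1 FPKM for 85 genes, at least 10 FPKM for 54 and at least 100 FPKM for 17, and it was under 1 FPKM for 13. Med6, a subunit of the Mediator head, was the highest at 385 FPKM, and Gtf2a1l, a germ cell relative of a TFIIA subunit, was the lowest at 0.140 FPKM. The median of the 85 tested genes was 22.9 FPKM, against 5.65 FPKM for all 9691 genes that reached a mean of 1 FPKM. Together the 98 genes made up 1.02% to 1.23% of summed FPKM. Their summed level was 5500 ± 224 FPKM (SD, n = 3) in controls and 5453 ± 300 FPKM (SD, n = 3) in inhibitor libraries, and the groups overlapped.

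**Figure D1:**
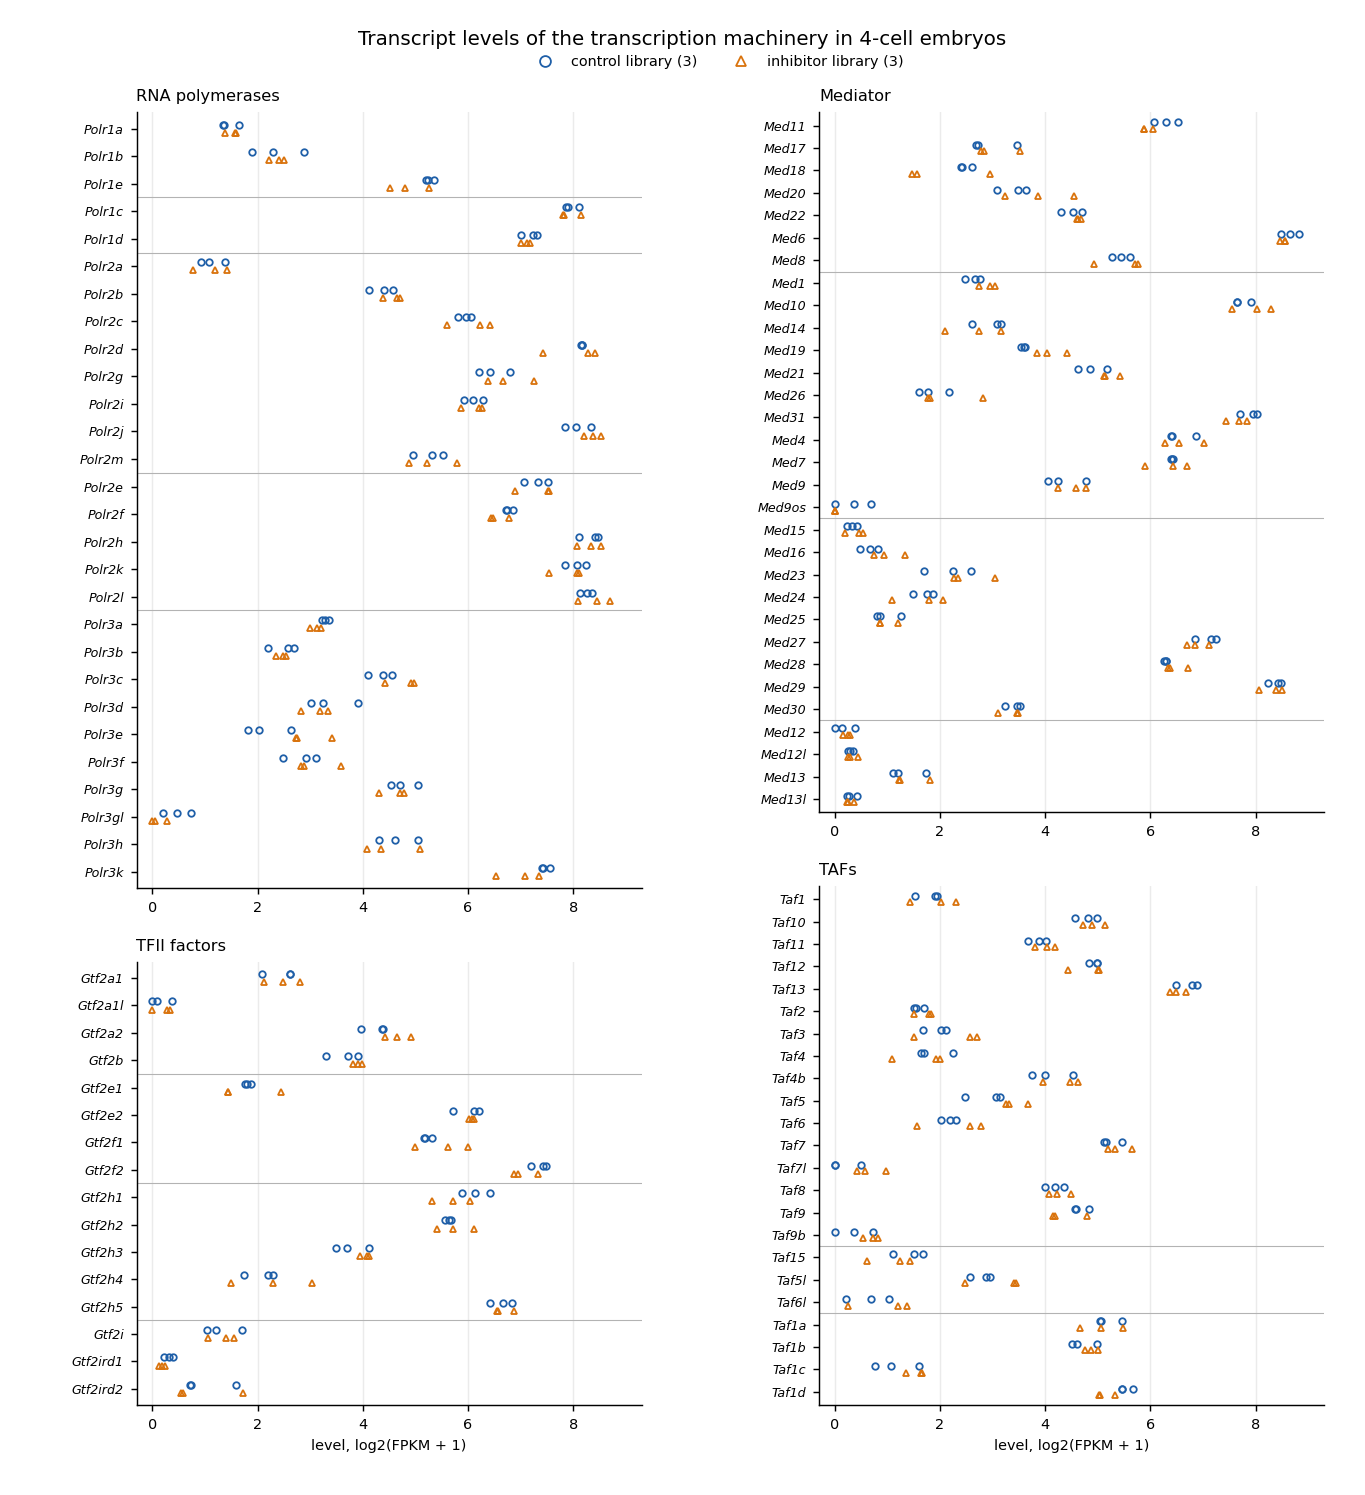
Level of each of the 98 genes as log2(FPKM + 1) on the x axis, in 4 panels by family, with grey lines between complexes. Circles are the 3 control libraries and triangles the 3 inhibitor libraries. Within a complex the genes spread far more than the libraries of 1 gene, as from Polr2a at 1.22 FPKM to Polr2j at 302.1 FPKM.

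In RNA polymerase II the transcript of the largest subunit was the scarcest. Polr2a, which carries the catalytic site and the heptad-repeat tail, was at 0.902, 1.12 and 1.61 FPKM in controls and at 0.714, 1.28 and 1.67 FPKM in inhibitor libraries. All 6 values were low, and the groups overlapped. Polr2b, the second largest subunit, averaged 21.4 FPKM over the 6 libraries. The small core subunit Polr2j was at 322.5, 266.3 and 229.5 FPKM in controls and at 330.0, 295.5 and 368.6 FPKM in inhibitor libraries. It was far above Polr2a in every library. The stalk subunits Polr2d and Polr2g, which sit beside the RNA exit of the enzyme, averaged 279.6 and 100.5 FPKM. Polr2m, a metazoan subunit that keeps the enzyme inactive in vitro and restores its need for Mediator, averaged 38.8 FPKM. All 5 subunits shared by the 3 polymerases were abundant, from 101.2 FPKM for Polr2f to 325.9 FPKM for Polr2l.

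RNA polymerases I and III showed the same kind of spread. The largest subunit of RNA polymerase I, Polr1a, averaged 1.81 FPKM, and the second largest, Polr1b, averaged 4.28 FPKM. Polr1e, which acts in initiation by RNA polymerase I, averaged 33.2 FPKM. It was the most abundant of the 3 members assigned to RNA polymerase I alone. Subunits of RNA polymerases I and III under other names, given further below, are not counted in this ranking. Polr1c and Polr1d, which form a dimer used by both RNA polymerases I and III, averaged 246.4 and 140.9 FPKM. In RNA polymerase III the 2 large subunits Polr3a and Polr3b averaged 8.23 and 4.58 FPKM, and Polr3k, a small subunit whose yeast counterpart acts in RNA cleavage and termination, averaged 152.6 FPKM.

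In Mediator the head gene Med6 was at 454.3, 399.2 and 358.0 FPKM in controls and at 374.2, 349.7 and 374.9 FPKM in inhibitor libraries. The groups overlapped, and no other of the 98 genes reached this mean. The middle subunits Med10 and Med31 averaged 233.4 and 219.8 FPKM, and the tail subunit Med29 averaged 327.1 FPKM. Med14, the scaffold that holds the modules together, averaged 6.23 FPKM, and Med1, a contact of nuclear receptors, averaged 5.90 FPKM. The tail subunits Med15, Med16 and Med25, which bind activators, averaged 0.286, 0.813 and 0.981 FPKM. The module that carries the kinase of Mediator was the scarcest part. Its 4 genes among the members, Med12, Med12l, Med13 and Med13l, summed to 2.18 ± 0.832 FPKM (SD, n = 3) in controls and 2.38 ± 0.668 FPKM (SD, n = 3) in inhibitor libraries. The kinase genes outside the name rule averaged 3.25 FPKM for Cdk8 and 0.799 FPKM for Cdk19, and their cyclin Ccnc averaged 34.9 FPKM. Med9os, which the rule took by its name, is a gene on the strand opposite Med9. It was listed at 0 in the 3 inhibitor libraries and in 1 control, and at 0.294 and 0.602 FPKM in the other controls.

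Among TFIID genes the histone-fold subunit Taf13 was the most abundant at 98.2 FPKM. Taf1, the largest subunit, averaged 2.69 FPKM and Taf2 averaged 2.14 FPKM. The TATA-binding protein Tbp averaged 17.3 ± 1.69 FPKM (SD, n = 6). Its relative Tbpl1 was higher than Tbp in 6 of 6 libraries and averaged 29.3 ± 7.51 FPKM (SD, n = 6). Tbpl2, known for its role in oocytes, was listed at 0 in 3 libraries and was at most 0.915 FPKM in the others. In SL1, the complex that recruits RNA polymerase I to ribosomal DNA, Taf1d, Taf1a and Taf1b averaged 39.7, 34.7 and 26.9 FPKM, and Taf1c averaged 1.61 FPKM. In TFIIF the subunits Gtf2f2 and Gtf2f1 averaged 149.1 and 41.8 FPKM, and in TFIIE Gtf2e2 and Gtf2e1 averaged 65.3 and 2.57 FPKM. In TFIIH, which opens the promoter, Gtf2h5 lay between 84.7 and 116.2 FPKM and Gtf2h4 averaged 3.78 FPKM.

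With the longest transcript as measure, the level followed length more closely in these genes than over all tested genes. This is a description across genes, which are not independent replicates. The tested genes include short noncoding ones, such as mt-Tm of 69 bases, and were not matched to the members. Length was that of the longest annotated coding transcript, or of the longest transcript where a gene has no coding one. Pearson's r of log2(mean FPKM + 1) with log2 length was -0.69 over the 85 tested members and -0.17 over 9682 tested genes. Over all 98 members r was -0.57, and it was -0.73 in the 28 polymerase genes, -0.57 in the 31 Mediator genes, -0.48 in the 16 TFII genes and -0.21 in the 23 TAF genes. It lay between -0.54 and -0.58 in every single library. The 25 members under 1500 bases had a median of 101.2 FPKM, the 34 from 1500 to under 3000 bases 21.8 FPKM, and the 39 of at least 3000 bases 4.28 FPKM. For the tested genes of the table these medians were 7.87, 6.76 and 3.81 FPKM. Exceptions existed on both sides. Med28, with a longest transcript of 4560 bases, averaged 82.6 FPKM, and Med30, with 1007 bases, averaged 9.46 FPKM. Length enters FPKM as a divisor, and with the shortest such transcript in place of the longest, r over the 98 members was -0.28. With the shortest transcript r was not computed over all tested genes. The part of length, priming and the authors' gene models in this was not tested.

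**Figure D2:**
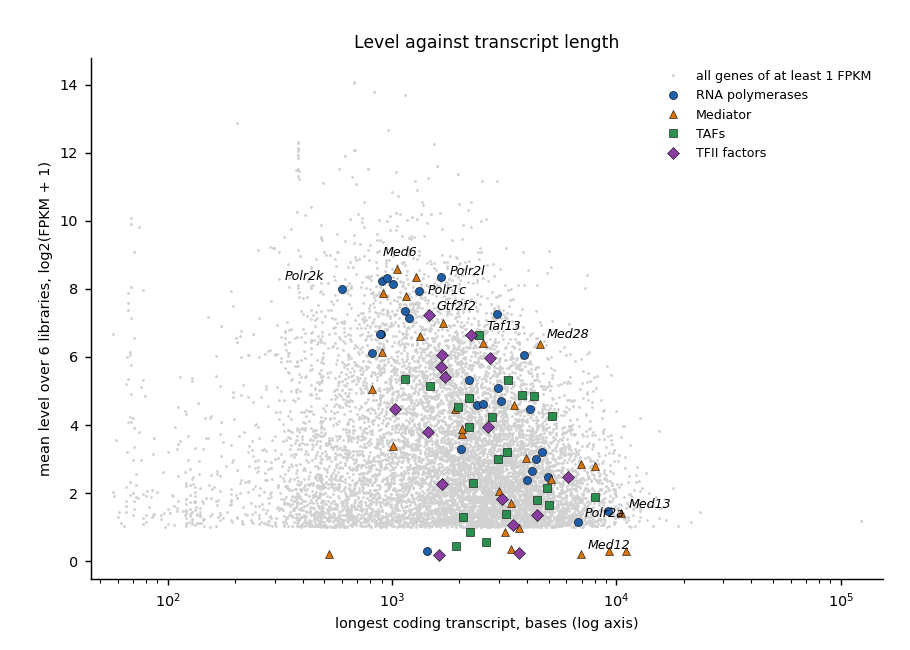
Mean level over the 6 libraries as log2(FPKM + 1) against the longest annotated coding transcript in bases on a log axis. For genes without a coding transcript the longest transcript is used. Grey dots are the 9682 tested genes with an annotated length and coloured symbols are the 98 members by family. Members under 1500 bases have a median of 101.2 FPKM and members of at least 3000 bases one of 4.28 FPKM.

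Several subunits are encoded by a pair of related genes, and in 7 of 9 pairs the same copy was the higher in 6 of 6 libraries. Polr3g and Polr3gl encode alternative forms of a subunit of RNA polymerase III, of which Polr3g is known from stem cells and Polr3gl from differentiated cells. Polr3g, on chromosome 13, was at 22.30, 32.08 and 25 FPKM in controls and at 25.20, 26.46 and 18.89 FPKM in inhibitor libraries. Polr3gl, on chromosome 3, was at 0.144, 0.390 and 0.655 FPKM in controls, at 0.0409 and 0.219 FPKM in 2 inhibitor libraries and listed at 0 in the third. Polr3g was the higher copy in 6 of 6 libraries. The promoter windows of both are shown for this contrast, from 250 bases before to 50 bases after the start, from RefSeq on GRCm38.p6. Polr3g lies at chr13:81710964-81711263 and Polr3gl at chr3:96594132-96594431, both on the minus strand, printed 5′ to 3′ along the gene. Capitals mark matches on either strand to GGGCGG (the GC box), to CCAAT (the CCAAT box), to CCGGAAG (an ETS factor motif), to CACGTG (an E box) and to TATAAA (the TATA box).
Polr3g: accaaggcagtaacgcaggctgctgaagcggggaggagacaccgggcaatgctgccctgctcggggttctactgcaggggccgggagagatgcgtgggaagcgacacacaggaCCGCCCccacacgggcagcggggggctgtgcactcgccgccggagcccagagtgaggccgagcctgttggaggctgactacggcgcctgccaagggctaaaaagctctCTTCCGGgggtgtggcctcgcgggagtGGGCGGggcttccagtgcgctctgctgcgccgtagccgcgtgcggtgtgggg
Polr3gl: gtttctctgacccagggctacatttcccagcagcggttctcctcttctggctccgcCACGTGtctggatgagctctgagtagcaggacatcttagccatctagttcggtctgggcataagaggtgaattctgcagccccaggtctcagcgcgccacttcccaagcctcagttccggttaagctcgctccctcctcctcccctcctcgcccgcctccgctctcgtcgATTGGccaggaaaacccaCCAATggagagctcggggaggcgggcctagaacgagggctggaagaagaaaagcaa
The Polr3g window held GGGCGG 2 times and CCGGAAG 1 time, with 26 CpG dinucleotides. The Polr3gl window held CCAAT 2 times and CACGTG 1 time, with 16 CpG dinucleotides. A match is a description of letters and not a binding site.

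In TFIID, Taf7 averaged 39.2 ± 5.92 FPKM (SD, n = 6), and its X-linked relative Taf7l, known from spermatogenesis, was at most 0.970 FPKM. Taf4b, a form known from the ovary and germ cells, was at 12.49, 14.95 and 21.97 FPKM in controls and at 14.51, 21.10 and 23.74 FPKM in inhibitor libraries. Taf4 was at 2.127, 3.750 and 2.221 FPKM in controls and at 1.121, 2.999 and 2.805 FPKM in inhibitor libraries. Taf4b was thus the higher copy in 6 of 6 libraries, by a ratio of mean levels of 7.24. Gtf2a1, the large TFIIA subunit, averaged 4.57 FPKM, and Gtf2a1l was at most 0.295 FPKM. Med13 averaged 1.66 FPKM and Med13l 0.227 FPKM, and Med13 was higher in 6 of 6 libraries. Med12 and Med12l were both at most 0.354 FPKM in every library, and Med12 was the higher in 1 of 6.

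The TAFs of the SAGA coactivator, Taf5l and Taf6l, stood differently against their TFIID relatives. Taf5 and Taf5l averaged 8.17 ± 2.35 and 7.01 ± 2.28 FPKM (SD, n = 6), and Taf5 was higher in 4 of 6 libraries, a difference within the spread of the libraries. Taf6 averaged 3.88 FPKM and Taf6l 0.816 FPKM, and Taf6 was higher in 6 of 6. Taf9 averaged 22.3 FPKM and Taf9b 0.471 FPKM. Taf9 shares 73.8% of its exon bases on the same strand with Ak6, an adenylate kinase gene at 1069 FPKM, so its level is uncertain. The labels mention no strand, and 38 of the 98 genes share exon bases with another annotated gene, 32 of them only on the opposite strand. The share exceeded 20% for Med7, Med10, Med20, Med31, Polr2i, Taf6, Taf9 and Taf10, and these levels are uncertain for the same reason.

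**Figure D3:**
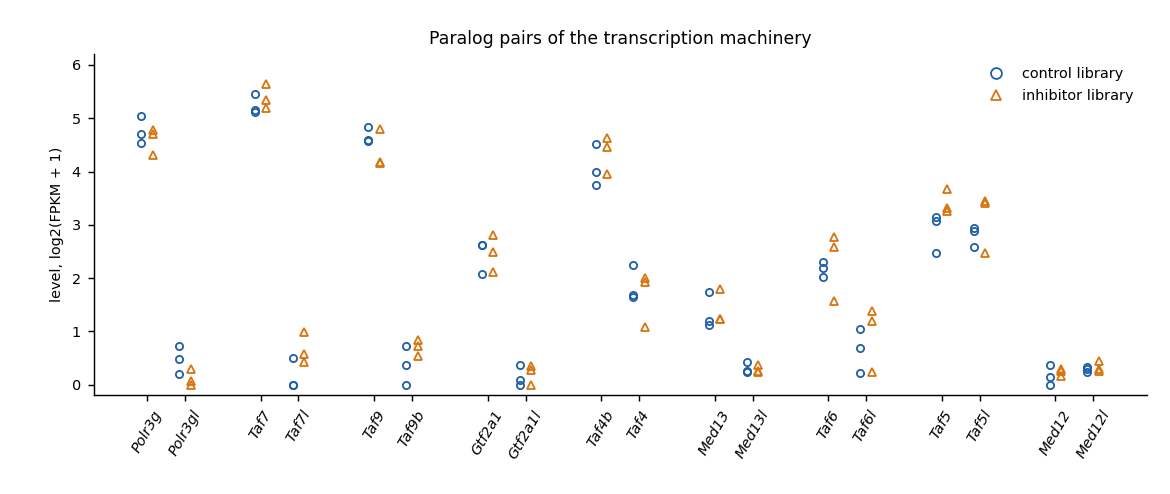
Level as log2(FPKM + 1) on the y axis for 9 paralog pairs, with circles for the 3 control and triangles for the 3 inhibitor libraries. In 7 pairs 1 copy is higher in 6 of 6 libraries, Taf5 and Taf5l overlap, and Med12 and Med12l both lie near 0.

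The comparison of inhibitor with control asks whether transcripts of the transcription machinery change when LDHB is inhibited. None of the 85 tested genes passed an adjusted p of 0.05 in limma, and neither did any of the 9691 tested genes, a background of 0%. Fold changes here are inhibitor minus control on the log2(FPKM + 1) scale. At an unadjusted p under 0.05, 2 members were higher, Polr3e and Med19, against a background of 4.72%, and 0 were lower, against 3.8%. All 3 inhibitor libraries lay above all controls for 5 members, against a background of 9.13%, and below them for 4, against 6.26%. The share of the 85 members in each class was below that of all genes. Leaving out single libraries changed the counts at an unadjusted p under 0.05. Without the first or the second control 0 members were higher, against 3.25% and 3.02% of all genes. Without the third inhibitor library 5 were higher, against 7.72% of all genes, and 1 was lower, against 4.45%. Without the first inhibitor library 3 were higher and 4 were lower, against 4.86% and 4.09% of all genes. Without the second inhibitor library 1 was higher, Med10, and 2 were lower, Taf1d and Taf9, against 4.60% and 4.58% of all genes. Neither Polr3e nor Med19 was then among the members called. Without the third control 1 was higher, Polr3e, against 3.15%. Changed genes are marked in the authors' deposited table, and 0 members were among them, against 0.792% of all genes, and the smallest q-value among members was 0.212, for Taf1d. An authors' p-value under 0.05 was listed for 4 members, Polr3e, Polr3k, Med11 and Taf1d, and for 7.52% of all genes in the authors' deposited table.

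The fold changes of members were small. Their median was 0.04, against 0.06 for all tested genes, and they ran from -0.48 for Polr3k to 0.81 for Polr3e. The median absolute log2 fold change was 0.17, against 0.24 for all tested genes, which were not matched for level. Above 0 lay 50 members and below 0 lay 35. Under median-ratio scaling 40 of 85 lay above 0 and the median was -0.03, with 49.7% of all genes above 0 in place of 57.1%. The unadjusted calls over all genes were then 3.09% higher and 5.28% lower, and Polr3e alone of the members was higher while Polr3k and Taf1d were lower. The unadjusted 95% interval lay within -1 and 1 for 72 of the 85 members (84.7%) and for 63.3% of all tested genes, again not matched for level. These limits are a 2-fold change of FPKM + 1, and for low genes they can hold a larger change of FPKM itself.

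**Figure D4:**
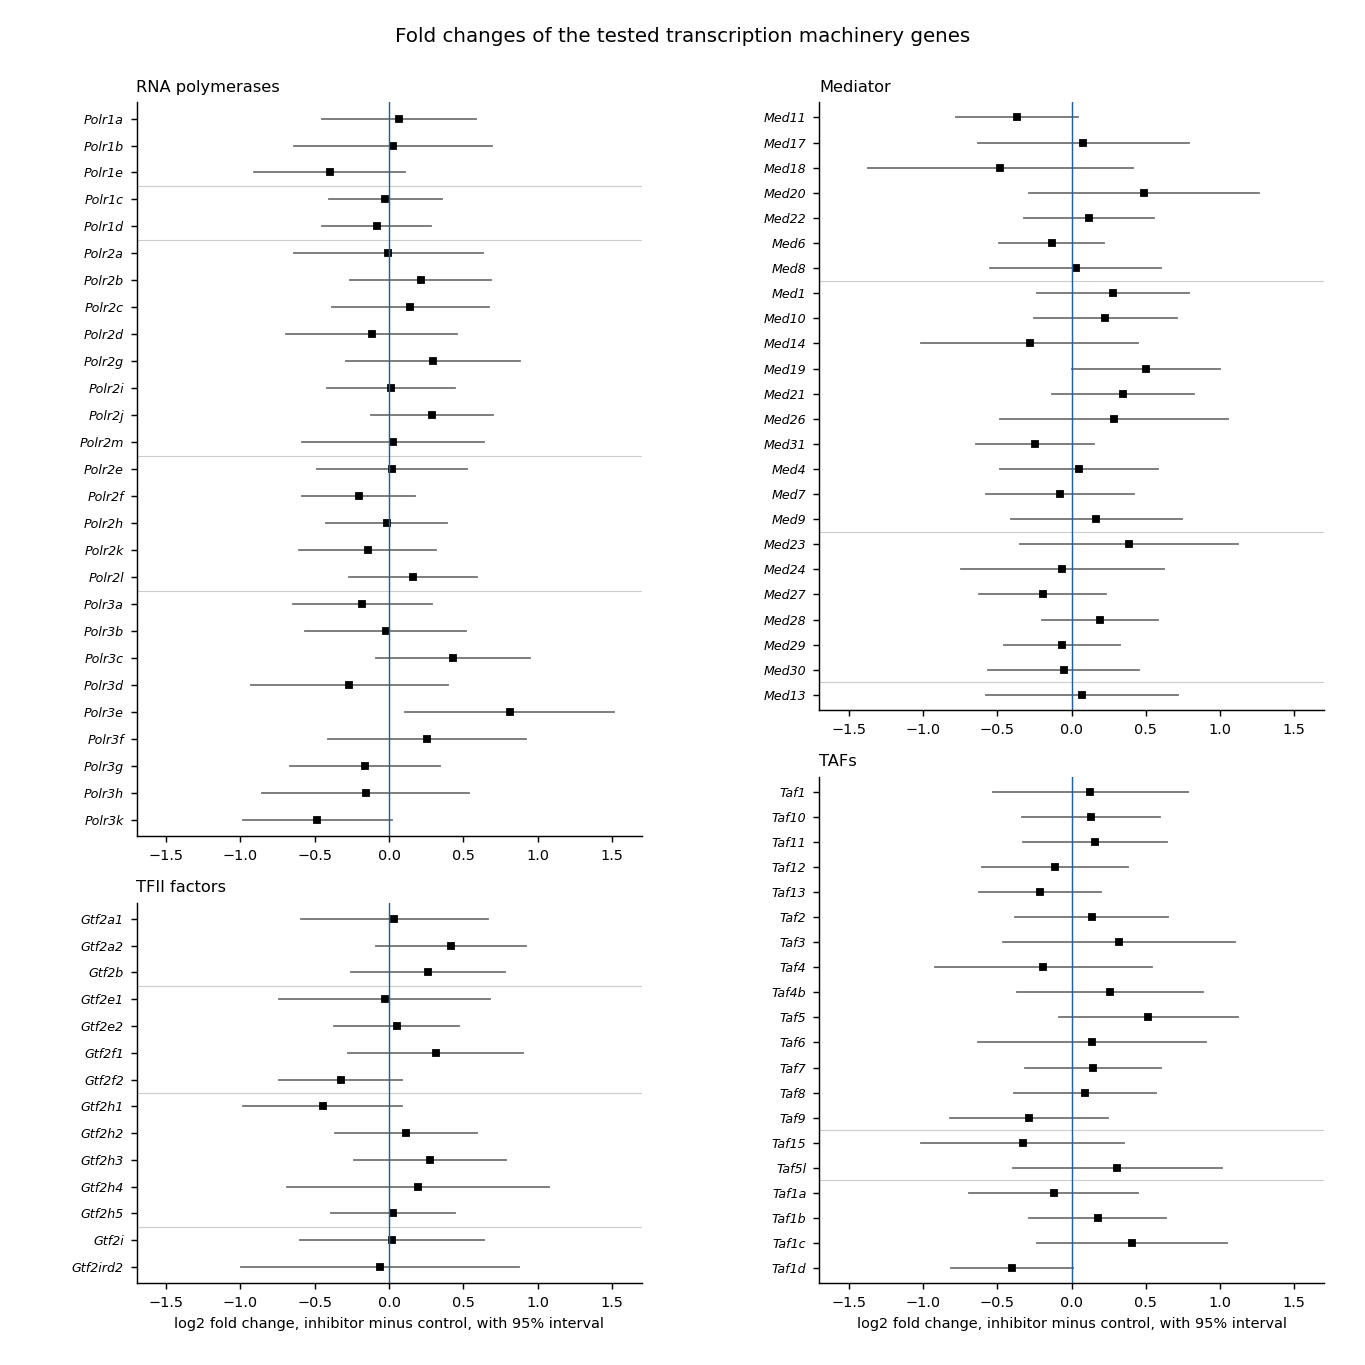
Log2 fold change of the 85 tested members, inhibitor minus control, on the x axis, with bars for the unadjusted 95% interval of limma and grey lines between complexes. The estimates run from -0.48 for Polr3k to 0.81 for Polr3e, and 72 of the 85 intervals lie within -1 and 1.

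By complex, the median log2 fold change was 0.08 for the 8 genes of RNA polymerase II, with 6 above 0, and -0.02 for the 5 subunits common to the 3 enzymes. It was -0.16 for the 9 tested genes of RNA polymerase III, of which 6 lay below 0. In Mediator it was 0.03 for the 7 head genes, 0.20 for the 10 tested middle and scaffold genes and -0.06 for the 6 tested tail genes. It was 0.13 for the 14 tested TFIID genes, 0.03 for the 4 SL1 genes, 0.26 for the 3 tested genes of TFIIA and TFIIB, 0.01 for the 4 of TFIIE and TFIIF, and 0.12 for the 5 of the TFIIH core. The smallest adjusted p in any complex, by limma, was 0.532, in RNA polymerase III.

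In RNA polymerase I, Polr1e was at 36.57, 36.06 and 40.04 FPKM in controls and at 37.51, 22.00 and 27.11 FPKM in inhibitor libraries. The first inhibitor library lay among the controls and the others below them. The log2 fold change was -0.40 (SE 0.22, adjusted p 0.646 in limma), and it was -0.23 without the second inhibitor library.

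RNA polymerase III held both ends of the range. Polr3e, on chromosome 7 at 120917744 to 120947432 of GRCm38, encodes a subunit that pairs with Polr3d, with a role in initiation and termination known from yeast. It was at 2.52, 3.07 and 5.19 FPKM in controls and at 5.75, 9.70 and 5.63 FPKM in inhibitor libraries. The inhibitor libraries all lay above the controls, by a narrow margin over the third control, and the second inhibitor library was the highest. The log2 fold change was 0.81 (SE 0.31, 95% interval 0.11 to 1.52), with an adjusted p of 0.532 in limma. Without the second inhibitor library it was 0.59, and over all alternatives it lay between 0.59 and 1.05. Its partner Polr3d had a log2 fold change of -0.27, with an interval from -0.93 to 0.40.

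Polr3k, on chromosome 2, was at 187.5, 172.1 and 169.0 FPKM in controls and at 91.4, 134.0 and 161.9 FPKM in inhibitor libraries. The inhibitor values were all lower and spread widely, and the first was the lowest. The log2 fold change was -0.48 (SE 0.22, 95% interval -0.98 to 0.02), with an adjusted p of 0.606 in limma, and it was -0.26 without the first inhibitor library. Polr3a was at 8.40, 8.69 and 9.31 FPKM in controls and at 8.20, 7.04 and 7.74 FPKM in inhibitor libraries, with a log2 fold change of -0.18 (SE 0.21). Polr3k carries most of the summed FPKM of the 10 RNA polymerase III genes, so their sum largely repeats Polr3k and is no result about the other genes. That sum was 284.0, 276.3 and 281.5 FPKM in controls and 212.9, 251.0 and 247.4 FPKM in inhibitor libraries, a sum singled out after its values were seen. The groups did not overlap as deposited or under median-ratio scaling. As a percentage of the summed FPKM of each library they did, with 0.0547%, 0.0540% and 0.0537% in controls and 0.0434%, 0.0504% and 0.0541% in inhibitor libraries. The summed FPKM of the TFIIA and TFIIB genes as deposited did not overlap either, in the other direction. It was 37.05, 28.56 and 37.53 FPKM in controls and 47.61, 40.64 and 41.79 FPKM in inhibitor libraries. Gtf2a2, at a mean of 21.3 FPKM, holds the largest part of it, and the groups of Gtf2a2 overlapped under median-ratio scaling. The sum of the TFIIA and TFIIB genes was itself not rescaled. Polr3g had a log2 fold change of -0.16 (SE 0.22), which lay between -0.27, without the first control, and -0.018, without the third inhibitor library, and was -0.020 without the second control and -0.25 without the second inhibitor library.

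The promoter window of Polr3e is shown beside those of Polr2j and Polr2a because these genes mark the largest fold change and the contrast in level within RNA polymerase II. They lie at chr7:120917528-120917827 on the plus strand, chr5:136116441-136116740 on the plus strand and chr11:69758584-69758883 on the minus strand, from RefSeq on GRCm38.p6. Capitals mark the motifs named above and, in Polr3e, GTTCGAATC, the core of the B box known from transfer RNA genes, which was searched for after the sequence was seen.
Polr3e: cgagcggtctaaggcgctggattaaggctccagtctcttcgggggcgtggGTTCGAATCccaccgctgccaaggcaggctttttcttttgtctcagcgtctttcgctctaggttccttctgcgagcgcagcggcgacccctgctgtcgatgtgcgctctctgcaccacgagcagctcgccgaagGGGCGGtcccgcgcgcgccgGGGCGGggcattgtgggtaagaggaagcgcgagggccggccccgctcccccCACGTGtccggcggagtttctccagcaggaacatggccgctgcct
Polr2j: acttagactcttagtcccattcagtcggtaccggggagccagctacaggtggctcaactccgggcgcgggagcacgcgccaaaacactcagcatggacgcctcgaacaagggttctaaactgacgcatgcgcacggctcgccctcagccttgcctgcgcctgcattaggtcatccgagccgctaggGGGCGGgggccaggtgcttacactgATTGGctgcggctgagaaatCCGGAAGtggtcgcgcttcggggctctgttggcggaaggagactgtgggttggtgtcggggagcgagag
Polr2a: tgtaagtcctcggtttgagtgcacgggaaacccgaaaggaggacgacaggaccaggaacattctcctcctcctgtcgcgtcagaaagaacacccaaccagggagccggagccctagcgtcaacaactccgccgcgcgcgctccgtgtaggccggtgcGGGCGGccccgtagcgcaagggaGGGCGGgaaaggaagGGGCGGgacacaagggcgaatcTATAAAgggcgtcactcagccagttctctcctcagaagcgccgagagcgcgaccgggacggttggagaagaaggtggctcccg
GTTCGAATC began 200 bases before the start of Polr3e, and whether it belongs to a transfer RNA gene there was not examined. The motif was searched for because of this window, so its 1 hit in 99 windows of the 84 members with a RefSeq window was fixed in advance. That hit is no result about members. GTTCGAATC stood in 0.0779% of windows of tested genes and in 0.0457% of all windows. The Polr2a window held TATAAA 33 bases before its start and GGGCGG 3 times, and the Polr2j window held the ETS motif, the CCAAT box and the GC box 1 time each and no TATA box. Over the member windows, with both strands searched, CCGGAAG stood in 31.3%, against 21.3% for tested genes and 8.86% for all windows. For CACGTG these shares were 19.2%, 10.9% and 7.15%, for GGGCGG 62.6%, 60.8% and 35.7%, for CCAAT 32.3%, 40.1% and 37.4%, and for TATAAA 12.1%, 7.45% and 13.6%. The median window held 22 CpG dinucleotides in members, 21 in tested genes and 7 over all genes. Windows of 1 gene can overlap, so these shares are a description.

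In Mediator, Med19, a middle subunit that links Mediator to RNA polymerase II, was at 11.1, 10.7 and 11.3 FPKM in controls and at 13.3, 15.4 and 20.2 FPKM in inhibitor libraries. The controls were tightly grouped and the inhibitor libraries were all higher. The log2 fold change was 0.50 (SE 0.22, 95% interval 0.0011 to 1.001), with an adjusted p of 0.587 in limma. Over all alternatives it lay between 0.34 and 0.63. Besides the main fit, Med19 had an unadjusted p under 0.05 in limma only with a pseudocount of 0.1 and without the first inhibitor library. Med28 was at 77.86, 75.39 and 77.13 FPKM in controls and at 81.28, 79.96 and 104.2 FPKM in inhibitor libraries, with a log2 fold change of 0.19 (SE 0.17). It was 0.069 without the third inhibitor library and 0.11 under median-ratio scaling, where the groups overlapped. The head subunit Med11 was at 91.1, 65.9 and 78.0 FPKM in controls and at 64.8, 57.8 and 57.6 FPKM in inhibitor libraries. The inhibitor values were all lower, the highest of them just under the lowest control, and the log2 fold change was -0.37 (SE 0.18, adjusted p 0.619 in limma). Med20 had a log2 fold change of 0.49 that was 0.16 without the second inhibitor library, where it was at 22.3 FPKM, and 0.81 without the first. Med21 had one of 0.34 (SE 0.21), which was 0.21 without the third control. Med23 had one of 0.39 (SE 0.32), which was 0.14 without the first control or without the third inhibitor library and 0.59 without the second control.

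Among TAFs, the TFIID scaffold subunit Taf5 was at 4.56, 7.81 and 7.42 FPKM in controls and at 8.92, 11.8 and 8.52 FPKM in inhibitor libraries. The inhibitor libraries all lay above the controls, and the log2 fold change was 0.52 (SE 0.26, adjusted p 0.628 in limma). Without the first control, the lowest library, it was 0.31. Taf1d of SL1, on chromosome 9, was at 49.6, 42.9 and 43.2 FPKM in controls and at 31.4, 38.9 and 32.0 FPKM in inhibitor libraries. All inhibitor values were lower, and the log2 fold change was -0.40 (SE 0.18, 95% interval -0.81 to 0.01), with an adjusted p of 0.598 in limma. Its exons contain several annotated small nucleolar RNA genes on the same strand. Taf1c of the same complex had a log2 fold change of 0.41 (SE 0.28), which was 0.22 without the second control and 0.64 without the third. Taf15 had one of -0.33 (SE 0.30), which was -0.089 without the third and -0.49 without the second inhibitor library, and -0.20 without the second control. Taf9 had one of -0.29 (SE 0.23), which was -0.17 without the first inhibitor library, -0.50 without the second and -0.19 without the third.

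Among TFII genes, the small TFIIA subunit Gtf2a2 was at 19.72, 14.64 and 19.99 FPKM in controls and at 29.12, 20.45 and 24.13 FPKM in inhibitor libraries. The groups did not overlap, by a margin of under 1 FPKM, and the log2 fold change was 0.42 (SE 0.22, adjusted p 0.629 in limma). Under median-ratio scaling the groups overlapped. Gtf2b, which positions RNA polymerase II at the start site, had a log2 fold change of 0.26 (SE 0.23), which was 0.091 without the second control and 0.40 without the first. Gtf2h1 of the TFIIH core had one of -0.45 (SE 0.23), which was -0.26 without the second inhibitor library. Gtf2f2 had one of -0.33 (SE 0.18), and its TFIIF partner Gtf2f1 had one of 0.31 (SE 0.26), which was 0.085 without the second and 0.58 without the third inhibitor library. Gtf2h3 had one of 0.28 (SE 0.23), which was 0.14 without the third control and 0.45 without the first. Gtf2i and Gtf2ird2, of a family of sequence-specific factors named after TFII-I, had log2 fold changes of 0.02 (SE 0.27) and -0.06 (SE 0.41).

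**Figure D5:**
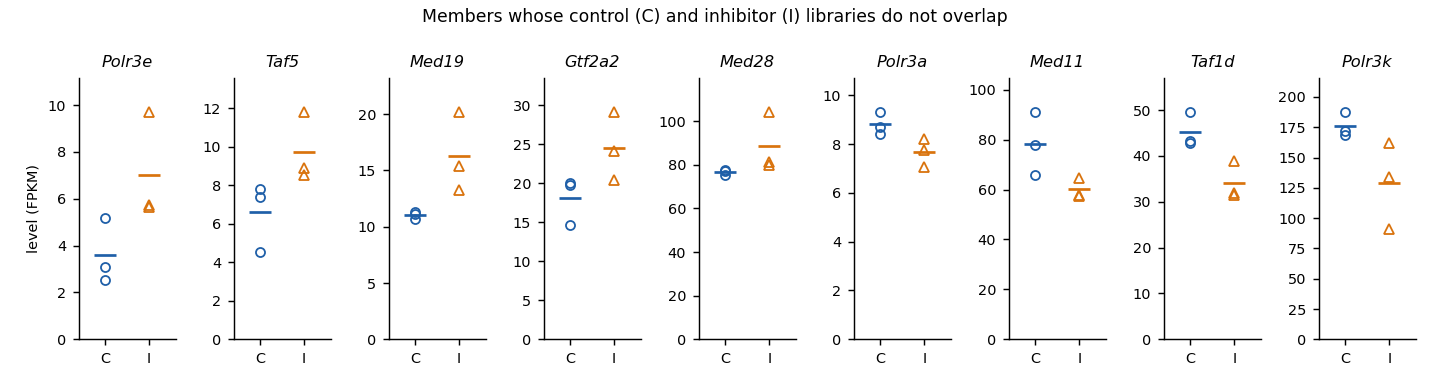
Level in FPKM, each axis from 0, of the 9 members whose control (C, circles) and inhibitor (I, triangles) libraries do not overlap, with lines at the means of 3 libraries. Inhibitor libraries lie above in Polr3e, Taf5, Med19, Gtf2a2 and Med28 and below in Polr3a, Med11, Taf1d and Polr3k, and no adjusted p is under 0.53.

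The share of fold changes below 0 was larger among abundant genes, in members and in all genes. Of the 17 with at least 100 FPKM, 12 had a fold change below 0 and the median was -0.08, against 26 of 37 above 0 from 10 to 100 FPKM and 19 of 31 above 0 from 1 to 10 FPKM. The shares above 0 were 29.4%, 70.3% and 61.3% in members and 47.7%, 58.4% and 57.6% in all tested genes of the same levels. Pearson's r of log2 fold change with log2(mean FPKM + 1) was -0.22 over the 85 members and -0.0007 over all tested genes, as a description across genes, and it was 0.05 over the members without the second inhibitor library. The abundant members were also the most even between libraries. The median coefficient of variation of members with at least 100 FPKM was 11.1% in controls and 15.4% in inhibitor libraries, against 24.6% and 37.6% from 1 to 10 FPKM. The highest of the 6 values lay in the first inhibitor library for 21 of 85 members (24.7%, against 16.5% of all tested genes), in the second for 21 (24.7% against 26.5%) and in the third for 15 (17.6% against 20.2%). It lay in a given control for 8 to 11 members, or 9.41% to 12.9%, against 11.3% to 12.9% of all tested genes.

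Other genes of the same machinery that the name rule does not reach were listed beside the members, 55 in all, of which 50 were tested. None passed an adjusted p of 0.05 in limma, as for all tested genes. Above 0 lay 31 (62.0%, against 57.1% of all tested genes) and below 0 lay 19. At an unadjusted p under 0.05, 0 were lower, against 3.8% of all tested genes, and 1 was higher, against 4.72%. That gene was Leo1, of the PAF1 elongation complex, at 4.44, 4.23 and 4.80 FPKM in controls and at 6.76, 6.92 and 7.11 FPKM in inhibitor libraries, without overlap. Its log2 fold change was 0.53 (SE 0.21, adjusted p 0.549 in limma). Ssrp1, of the histone chaperone FACT, had a log2 fold change of 0.49 (SE 0.23). Gtf3c3 and Gtf3c5, subunits of the TFIIIC complex that recognises transfer RNA genes, had log2 fold changes of -0.51 (SE 0.24) and 0.59 (SE 0.31), and that of Gtf3c3 was -0.33 without the second inhibitor library. Subunits of RNA polymerases I and III are listed under other names, with mean levels of 6.22 FPKM for Cd3eap, 49.3 FPKM for Twistnb, 121.2 FPKM for Crcp and 192.5 FPKM for Znrd1, and the log2 fold changes of these 4 genes lay between -0.14 and 0.15.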

How the data were processed

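RNA was measured in 3 control and 3 inhibitor libraries of 4-cell mouse embryos, grouped by title. Per the labels' protocols, complementary DNA was primed with oligo(dT), made full-length, amplified and read from both ends. HISAT2 2.2.1, StringTie 2.1.6 and cutadapt 1.9, with edgeR and DESeq2 and the build GRCm38, are the tools of the authors per the submitters' processing notes, which assign them no roles. The authors deposited FPKM per gene, a ratio of group means (fold change), its log2, and a p-value and q-value, per the file headers. Low FPKM values did not fall on steps, so depth is unknown and no counting interval is given.

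The fit was made by limma 3.58.1 (R 4.3.3) to log2(FPKM + 1), with trend and robust moderation, where the mean reached 1 FPKM, and Benjamini-Hochberg adjustment over all 9691 tested genes at 0.05. This scale understates changes of low genes. The fit was tested on simulated data. Intervals are unadjusted. All 98 members were found in GENCODE M21 on GRCm38, which gave coordinates, lengths and overlaps, and BLAST 2.17.0 gave near-identical copies. Promoter windows came from RefSeq, with 84 members matched.

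Members and lists were chosen with earlier results of these data known. Genes were named by a rule. It took in each complex the most abundant gene and the 2 with the smallest p, both genes of each paralog pair, and the 4 companion genes with the smallest p. Others named for their role or level, or because their groups did not overlap, were chosen after their values were seen. Alternatives covered the pseudocount, filter, scaling, omission of single libraries, a replicate block, library weights and the variance fit. The deposited enrichment tables were not used here.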

Additional observations from a re-analysis of the deposited data

How the results depend on the processing

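The count of members past an adjusted p of 0.05 in limma was 0 under every alternative, with the smallest member adjusted p between 0.304 and 0.900. Over all genes it was 0 except 12 without the first and 1 without the second inhibitor library (range 0 to 12 over libraries left out). Members higher at an unadjusted p under 0.05 numbered 2, and 1 with no filter, with median-ratio scaling, with quantile normalization and with no trend or robustness, 0 with a mean of at least 5 FPKM, and 0 to 5 with 1 library left out. The share of all genes higher was 2.30% with no filter, 4.80% with no trend or robustness and 5.05% with a mean of at least 5 FPKM. Members lower numbered 0, and 2 under median-ratio scaling, 3 under quantile normalization, 2 with library weights, and 0 to 4 with 1 library left out. The share of all genes lower was 4.34% with library weights and 2.44% to 4.58% with 1 library left out, and the share higher was 3.02% to 7.72% with 1 library left out. The median fold change, 0.04, was -0.031 under median-ratio scaling, -0.058 under quantile normalization, 0.068 with library weights and 0.023 to 0.069 with 1 library left out. Quantile normalization left 36 of 85 members above 0, and the unadjusted calls over all genes were then 2.77% higher and 5.60% lower.

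With the replicate number as a block, 0 members passed and 1 member was higher at an unadjusted p under 0.05, against 5.0% of all genes. Same-numbered libraries had correlations of 0.136, 0.202 and 0.0368 in their deviations from the group means. Differently numbered libraries had -0.194 to 0.0546. Each inhibitor library correlated best with its own number, the third by a narrow margin (0.0368 against 0.0345), and so did the first and second controls. The third control correlated best with the first inhibitor library. The main fit took no pairing, and whether the numbers pair the samples was not tested.

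After seeing the data, r of level with length (-0.57) was computed with the shortest transcript (-0.28) and for members of at least 1 FPKM (-0.69), and the members with every inhibitor library above every control were counted under median-ratio scaling, as 3 in place of 5, against 6.40% of all genes. Gtf2a2 and Med28 were the 2 lost, and the members below remained 4, against 8.54% of all genes. The summed level of RNA polymerase III was rescaled as well.

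Of 634 recomputed fold changes of 46 named genes 604 kept their sign, and 0 passed the threshold. Fold changes with a turned sign were in 10 genes, and the cause was not tested. Under quantile normalization Polr1a was -0.0041. Polr1c was 0.039 and Med29 0.0023 with library weights. Gtf2h5 was -0.056 and -0.080, Gtf2i -0.031 and -0.058, and Gtf2a1 -0.031 and -0.074 under median-ratio scaling and quantile normalization, and Gtf2a1 was -0.070 with library weights. With 1 library left out, Polr1c ranged from -0.14 to 0.049, Med29 from -0.16 to 0.065, Med13 from -0.12 to 0.27, Gtf2h5 from -0.083 to 0.12, Gtf2ird2 from -0.45 to 0.22, Gtf2i from -0.12 to 0.21, Taf4 from -0.35 to 0.10, Taf6 from -0.10 to 0.51 and Gtf2a1 from -0.14 to 0.21. Genes under 10 FPKM varied most between libraries, which limits their estimates.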
